A study of Mus musculus with 138 samples.

Results

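The coronal suture at E16.5 (embryonic days of mouse gestation) was analysed by its 3 laser-captured regions: the suture mesenchyme (SM), the osteogenic front (OF) of the frontal bone and the OF of the parietal bone. Members were chosen by their labels: all first libraries of this suture and age, 5 of each region, which gave 15 of the 138 samples of the series. All embryos were C57BL/6J, a wild type inbred mouse strain, and SM, frontal OF and parietal OF of the same number carried an identical litter identifier that no other number had, read here as the same embryo. Embryos 2, 3 and 5 shared all but the last number of that identifier. No group carried a mutation or a treatment, and each region of an embryo entered the main comparisons as 1 captured library. Every library was total RNA from captured tissue, amplified before sequencing, so fewer cells of a type and less RNA per cell cannot be told apart in any result below.

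Calvarial bones grow by intramembranous ossification. Cells at the OF, the advancing bone edge, become osteoblasts under RUNX2 and SP7 and lay down a collagen matrix that later mineralizes, while the SM between the bones stays unossified. Craniosynostosis is the early fusion of skull bones.

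The 15 libraries held 20873549 to 34518477 counts each and 17274 to 22824 detected genes. Mitochondrial genes took 25.7% to 52.4% of counts, with the highest shares in the regions of embryo 5 (42.7% to 52.4%). The third frontal OF library stood apart on the second principal component, so counts are also given without it where they lead a result. Replicates varied widely (biological coefficient of variation 0.87), and a gene entered the fit with at least 1 CPM (a count scaled to library size) in 2 or more libraries, which left 18551 genes. Values per library are CPM after TMM scaling, differences are log2 fold changes ± their standard error (SE), and adjusted p values come from edgeR's quasi-likelihood test with the embryo as a block. A call means adjusted p under 0.05.

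The labelled regions were checked by marker genes. Osteoblast markers (Ibsp, Bglap, Sp7, Alpl, Dmp1 and Ifitm5) summed to 219 to 692 CPM in SM, 5250 to 10800 CPM in the frontal OF and 6820 to 9920 CPM in the parietal OF. Of 6 SM markers, Erg, Sox6, Hhip and Adamts8 were higher in SM, while Angptl2 (0.09, adjusted p = 0.813) and Foxl2 (1.14, adjusted p = 0.526) did not pass against the mean of both OFs on the log2 scale by edgeR. The 6 summed to 1610 to 1970 CPM in SM, 870 to 1110 CPM in the frontal OF and 641 to 889 CPM in the parietal OF.

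SM had less of most bone matrix and collagen processing transcripts than the fronts, and 12 of 36 tested skull and suture patterning transcription factors were higher in SM. Against the mean of both OFs, 645 genes were higher in SM and 889 were lower, which is 8.27% of the genes tested (3.48% higher and 4.79% lower). In 400 genes (2.16%) all SM libraries lay below all 10 OF libraries, and in 155 genes (0.836%) all lay above them. Without TMM scaling, which moved the median difference of all genes by 0.18, the split was 930 higher and 604 lower. The called total was 826 without embryo 4 and 1536 without the third frontal OF library.

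**Figure D1:**
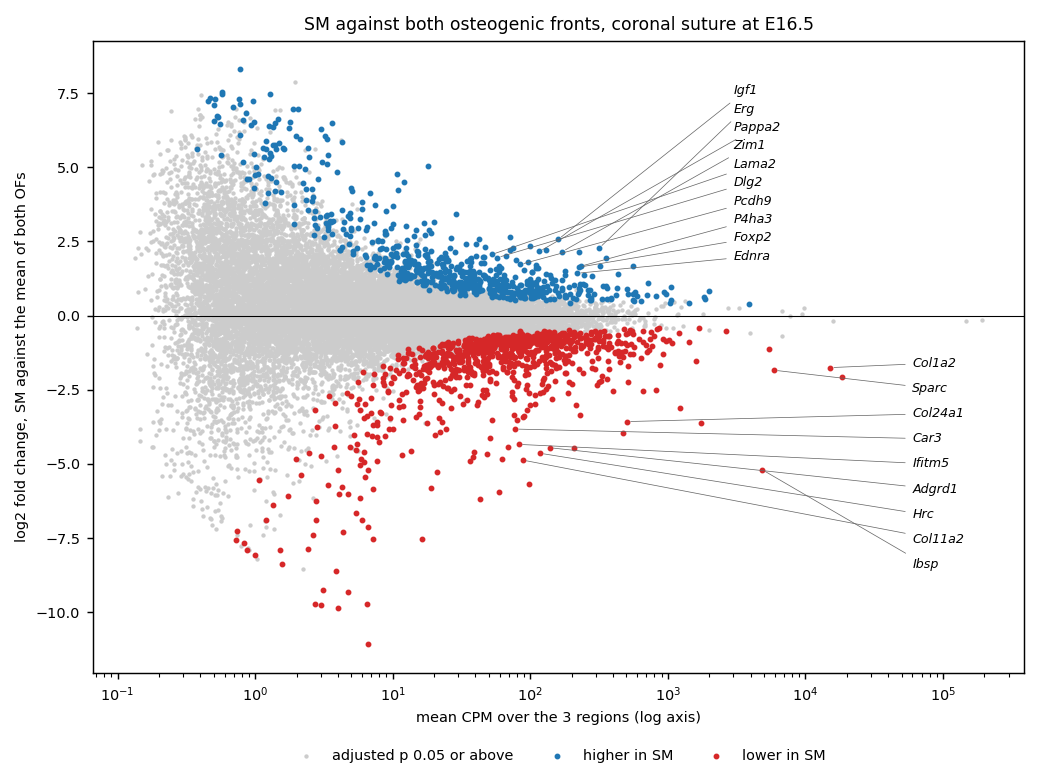
Log2 fold change of SM against the mean of both OFs (vertical) by mean CPM over the 3 regions (horizontal, log axis), 1 point per gene. Blue and red points are the 645 genes higher and the 889 genes lower in SM, and protein-coding genes among the 10 with the lowest p in each direction are named. The named genes that are lower in SM lie between -5.20 for Ibsp and -1.75 for Col1a2, and Igf1 has the largest value of those that are higher (2.57).

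Ibsp, which encodes integrin-binding sialoprotein, an early osteoblast matrix protein, had the lowest p of all genes. In SM it was at 491, 152, 222, 111 and 129 CPM in embryos 1 to 5. The frontal OF held 9898, 5486, 7332, 4634 and 6176 CPM and the parietal OF 6184, 7904, 9165, 6334 and 8806 CPM. All SM libraries were far below all OF libraries, with a log2 fold change of -5.20 ± 0.27 (adjusted p = 1.37e-08). The SM library of embryo 1 was the highest of its group.

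Promoters of the leading genes are shown with the motifs found in them. In 250 bases before the RefSeq start, on both strands, 4 motifs were searched in the promoters found for 7 of the 10 leading genes lower in SM and 9 of the 10 higher in SM. These were TATAAA, the TATA box, TGTGGT, the core bound by RUNX factors, GGGTGGTC, bound by the hedgehog effectors GLI, and CCGGAA, bound by ETS factors such as ERG. Each match is in capitals within its 60 bases, written 5′ to 3′ on the gene's strand (RefSeq, GRCm38.p6).
Ibsp, chr5:104299227-104299286, + strand: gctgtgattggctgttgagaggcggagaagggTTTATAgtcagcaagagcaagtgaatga
Col11a2, chr17:34038968-34039027, + strand: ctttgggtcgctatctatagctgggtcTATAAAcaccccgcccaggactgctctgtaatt
Ifitm5, chr7:140950411-140950470, - strand: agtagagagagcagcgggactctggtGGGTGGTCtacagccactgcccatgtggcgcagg
Dlg2, chr7:91090536-91090595, + strand: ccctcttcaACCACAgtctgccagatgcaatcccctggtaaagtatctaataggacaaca

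TATAAA, read on the opposite strand, began 28 bases before the Ibsp start, and it began 143 bases before that of Col11a2. Of all 27025 promoters of this length 13.0% held TATAAA, against 6.63% of those of the tested genes, 6.87% of those of called genes lower in SM and 6.52% of those higher in SM. GGGTGGTC lay in the Ifitm5 promoter only among the leading genes (0.681% of all promoters, 0.797% of those of tested genes, 0.763% of those of called genes lower in SM and 0.725% of those higher in SM), and TGTGGT in that of Dlg2 only (14.2% of all promoters). CCGGAA was in none of them (12.2% of all promoters and 21.2% of those of tested genes). Over all called genes CCGGAA was in 19.7% of the promoters of genes lower in SM and 11.1% of those higher in SM, and TGTGGT was in 9.62% of the promoters of genes lower in SM, 7.97% of those higher in SM and 10.7% of those of all tested genes.

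Bone matrix and mineralization genes were mostly lower in SM. Of 28 listed genes 25 were tested, and 20 were lower in SM, against 4.79% of all genes. By edgeR 0 were higher with all 5 embryos, as by DESeq2 and limma-voom, while 1 was called higher without embryo 5 and 1 in a single fit of all first libraries. Of the tested genes 1 had an unadjusted p under 0.05 in that direction, and the list had a median log2 fold change of -3.57 against 0.09 for all genes tested. Osteocalcin (Bglap and Bglap2) and Sost, products of later bone cells, did not reach the expression minimum. Ifitm5, a membrane protein of mineralizing osteoblasts, was at 10.8, 5.35, 6.29, 3.34 and 4.66 CPM in SM. It was at 109, 99.4, 109, 81.0 and 107 CPM in the frontal OF and at 79.9, 128, 148, 158 and 191 CPM in the parietal OF. SM did not overlap either front (-4.34 ± 0.31, adjusted p = 2.17e-07).

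Alpl, the tissue-nonspecific alkaline phosphatase, was at 96.0, 79.6, 117, 63.2 and 140 CPM in SM, and its lowest OF value was 329 CPM in the frontal OF of embryo 4. The difference was -2.21 ± 0.18 (adjusted p = 8.38e-07). Dmp1, a mineralization protein of late osteoblasts and osteocytes, had 9 counts over the 5 SM libraries, 1552 over the frontal OF and 1158 over the parietal OF. Phex, Phospho1, Smpd3 and Slc13a5, which act on phosphate, mineral nucleation or citrate, were all lower in SM with log2 fold changes between -5.94 and -3.95. Col1a1, the main bone collagen chain, was not absent from SM.

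Col1a1 was at 5023, 8093, 6018, 4420 and 5743 CPM in SM. The frontal OF held 29950, 27210, 36810, 15670 and 15970 CPM and the parietal OF 19970, 28130, 25450, 24260 and 24300 CPM. SM lay below every front (-2.08 ± 0.17, adjusted p = 6.66e-07). Spp1, osteopontin, was low in all regions, with means of 4.38 CPM in SM, 17.1 CPM in the frontal OF and 9.05 CPM in the parietal OF, and did not pass the test (adjusted p = 0.338). Mmp13, a collagenase of osteoblasts, likewise had means of 7.61, 5.61 and 5.00 CPM in SM, frontal OF and parietal OF (adjusted p = 0.827).

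Genes for collagen processing and secretion were mostly lower in SM. Of 31 genes, all tested, 19 were lower and 1 higher (median -1.08), against 4.79% and 3.48% of all genes. P4ha1, a catalytic subunit of prolyl 4-hydroxylase, was at 51.0, 61.1, 68.7, 67.7 and 58.7 CPM in SM, against 261, 272, 160, 242 and 271 CPM in the frontal OF and 151, 251, 242, 244 and 302 CPM in the parietal OF. Every SM value was below every OF value (-1.95 ± 0.18, adjusted p = 3.08e-06). P4ha2, P4hb, P3h1 and the collagen chaperone Serpinh1 also fell, by 1.54 to 2.09 on the log2 scale. Creb3l1, the transcription factor that drives secretory genes in osteoblasts, had a mean of 147 CPM in SM, 598 CPM in the frontal OF and 795 CPM in the parietal OF (-2.25 ± 0.17, adjusted p = 3.52e-07).

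P4ha3, another catalytic subunit of the same enzyme, was the exception. It was at 390, 314, 452, 406 and 568 CPM in SM. It was at 128, 155, 180, 140 and 149 CPM in the frontal OF and at 141, 155, 120, 79.3 and 108 CPM in the parietal OF. All SM libraries were above all OF libraries (1.66 ± 0.16, adjusted p = 5.22e-06), opposite in direction to P4ha1 and P4ha2.

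Osteoblast transcription factors were graded. Of 15 listed and tested, 6 were lower in SM, 2 were higher and 7 did not pass (median -0.40). Among all genes 4.79% were lower and 3.48% higher. Runx2, needed for the start of osteoblast differentiation, was at 894, 456, 556, 534 and 703 CPM in SM, at 1044, 1012, 1235, 945 and 1198 CPM in the frontal OF and at 989, 1020, 1076, 1037 and 1092 CPM in the parietal OF. Even so, no SM value reached the lowest OF value (-0.79 ± 0.14, adjusted p = 0.00137). Sp7, which acts after Runx2, fell further, from 212 ± 43.9 CPM (SD, n = 5) in the frontal OF and 266 ± 61.6 CPM in the parietal OF to 63.0 ± 21.4 CPM in SM. Its log2 fold change was -1.95 ± 0.20 (adjusted p = 9.74e-06).

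Dlx3, a homeobox factor of bone and tooth, was the most reduced of these factors. It was at 2.93, 6.77, 6.48, 0.875 and 0.604 CPM in SM and at 220, 97.7, 223, 87.8 and 37.2 CPM in the frontal OF. In the parietal OF it ranged from 119 to 206 CPM (-5.67 ± 0.55, adjusted p = 4.91e-06). The frontal OF of embryo 5 was the lowest front and still above every SM library.

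Zfp521, a repressor that binds RUNX2, went the other way. In SM it was at 436, 636, 528, 542 and 519 CPM, and no OF library exceeded 309 CPM (0.98 ± 0.13, adjusted p = 0.000102). The homeobox gene Msx2 also rose, by 1.09 ± 0.24 (adjusted p = 0.0084).

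**Figure D2:**
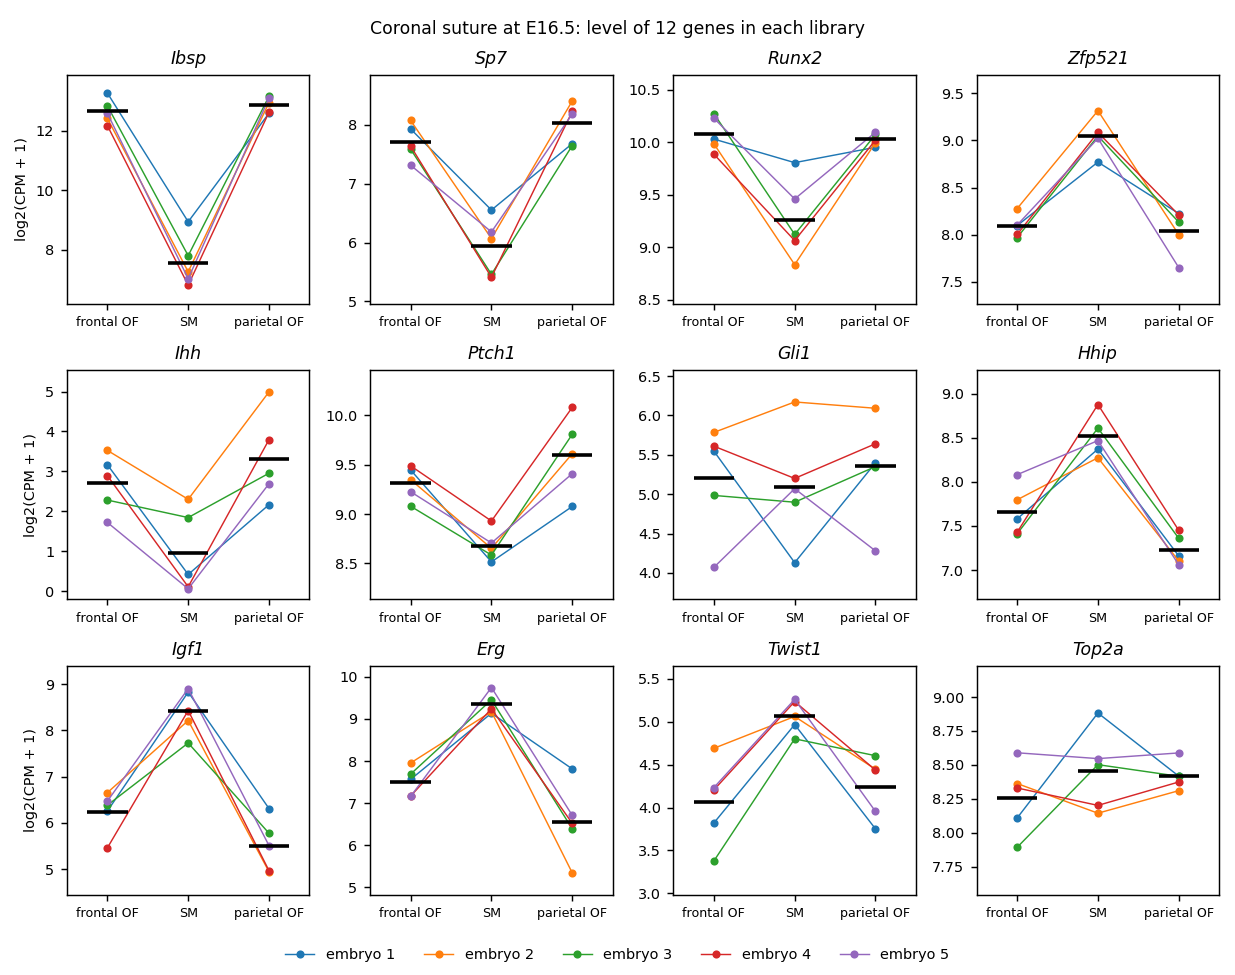
Log2(CPM + 1) of 12 genes (vertical) in frontal OF, SM and parietal OF (horizontal); points are libraries, coloured lines join the regions of an embryo and black bars are means of 5. Ibsp and Sp7 dip in SM in all 5 embryos, Zfp521, Hhip, Igf1, Erg and Twist1 peak there in all 5, and Gli1 and Top2a show no common direction.

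Hedgehog signaling in the skull runs from Indian hedgehog (Ihh), made by osteogenic cells, to the receptor Ptch1 and the effector Gli1. Ptch1, Gli1 and Hhip, a decoy that binds the ligand, are all targets of the pathway. Of 18 listed genes 17 were tested, with 3 higher in SM, 3 lower and 11 not called (median -0.12). Among all genes 3.48% were higher and 4.79% lower. The ligand was scarce: Ihh was at 0.338, 3.93, 2.59, 0.0796 and 0.0431 CPM in SM (215 counts in all), at 2.30 to 10.5 CPM in the frontal OF and at 3.49 to 30.8 CPM in the parietal OF. It was lower in SM than in both fronts in 5 of 5 embryos, though the groups overlapped (-3.39 ± 0.86, adjusted p = 0.0191). The call was lost without the embryo as a block (adjusted p = 0.0847) and without embryo 1, 2, 4 or 5 (adjusted p between 0.0517 and 0.0979). Disp1, which releases the ligand, was lower too (-1.52 ± 0.26, adjusted p = 0.000953).

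The 3 pathway targets differed in direction. Ptch1 was at 365, 402, 383, 487 and 417 CPM in SM. It was at 697, 651, 540, 718 and 598 CPM in the frontal OF and at 539, 781, 896, 1082 and 679 CPM in the parietal OF. SM was below every front (-0.79 ± 0.14, adjusted p = 0.00128). Hhip was at 330, 308, 389, 469 and 353 CPM in SM, at 190, 221, 169, 171 and 270 CPM in the frontal OF and at 142, 136, 163, 174 and 132 CPM in the parietal OF. Every SM library was above every front (1.07 ± 0.15, adjusted p = 0.000153).

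Gli1 was not called in either direction, with 37.0 ± 20.4 CPM in SM, 38.8 ± 15.5 CPM in the frontal OF and 43.1 ± 17.6 CPM in the parietal OF (-0.12 ± 0.27, adjusted p = 0.862). SM exceeded both fronts in 2 of 5 embryos and was below both in 3. The co-receptors Gas1 and Cdon, which help PTCH1 bind the ligand, were higher in SM. Gas1 was at 34.1, 47.7, 49.7, 53.2 and 88.2 CPM there and at 10.3 to 39.4 CPM in the fronts, above both fronts of the same embryo in 5 of 5 (1.26 ± 0.24, adjusted p = 0.00281).

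Wnt genes were called in both directions, antagonists included. Of 36 listed genes 31 were tested, 9 lower and 5 higher in SM (median -0.50), against 4.79% and 3.48% of all genes. Without embryo 4 the counts were 6 and 5. Dkk1, a secreted inhibitor of LRP co-receptors, was at 2.59, 0.363, 1.67, 0.239 and 7.60 CPM in SM, at 80.1, 41.3, 16.7, 26.5 and 85.9 CPM in the frontal OF and at 49.1, 30.6, 43.1, 45.4 and 114 CPM in the parietal OF. SM lay below every front (-4.91 ± 0.51, adjusted p = 8.86e-06). Frzb and Sfrp1, which bind Wnt proteins, and Tcf7, a transcription factor and target of the pathway, were lower as well. Tcf7 had a mean of 57.8 CPM in SM against 248 and 296 CPM in the frontal and parietal OF (-2.30 ± 0.23, adjusted p = 6.09e-06). Rspo3, which strengthens Wnt signaling, was higher in SM (means of 30.2 CPM in SM, 4.29 CPM in the frontal OF and 3.23 CPM in the parietal OF, 3.01 ± 0.69, adjusted p = 0.00977), as were Sfrp2, another Wnt-binding protein, Dkk2 and Dkk3, relatives of Dkk1, and the co-receptor Lrp6.

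In the BMP and TGF-beta list 35 of 36 genes were tested, 8 were lower and 5 higher (median 0.22), against 4.79% and 3.48% of all genes. Without embryo 4 the counts were 6 and 2. Bambi, a decoy receptor that dampens both pathways, was at 12.3, 11.5, 8.82, 9.15 and 5.61 CPM in SM and between 41.0 and 128 CPM in the fronts (-2.73 ± 0.28, adjusted p = 8.46e-06). Bmper, Bmp3 and Tgfb1 were also lower, by 2.36 to 2.99 on the log2 scale. The BMP antagonist Grem1 was higher in SM (adjusted p = 0.00363), where it had 550 counts against 27 in the frontal OF and 3 in the parietal OF. It was called against the parietal OF alone (adjusted p = 0.00773) but not against the frontal OF alone (adjusted p = 0.139).

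Of 26 FGF and ERK feedback genes 22 were tested, with 5 higher and 2 lower in SM (median 0.47), against 3.48% and 4.79% of all genes. Without the embryo as a block the list gave 2 higher and 1 lower. It gave 3 and 2 with edgeR's own expression filter and without embryo 1, 3 or 4. DESeq2 called 7 and 2, and limma-voom 6 and 2. The higher genes were the ligands Fgf2, Fgf7, Fgf9 and Fgf10 and the ETS factor Etv1. Fgf7 was among those not called without the block (log2 fold change 2.37, adjusted p = 0.2, against 4.19 and 0.00874 with it). Fgf10 and Etv1 were near the threshold (adjusted p = 0.04725 and 0.04844) and were not called against either front alone. Fgf9 was at 13.7, 16, 1.82, 9.79 and 11.9 CPM in SM, at 0 to 0.334 CPM in the frontal OF and at 0 to 2.96 CPM in the parietal OF (4.83 ± 0.96, adjusted p = 0.00343). The third SM library lay below the highest parietal value. Fgfr2, a receptor mutated in craniosynostosis, was at 606 ± 111 CPM in SM, 698 ± 187 CPM in the frontal OF and 586 CPM on average in the parietal OF and did not pass (-0.08 ± 0.15, adjusted p = 0.826). The 2 lower genes were Fgfr3 (-2.10, adjusted p = 0.00471) and Etv5, another ETS factor (-1.51, adjusted p = 0.00674). Etv5 was not called without the block (adjusted p = 0.0629).

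Notch and ephrin genes gave 3 higher and 1 lower of 29 tested (median 0.38), against 8.27% called among all genes. Notch3, a receptor and 1 of the higher genes, was not called without embryo 3, 4 or 5 (adjusted p = 0.0809, 0.0982 and 0.0957). Jag1, a Notch ligand, rose by 1.24 ± 0.24 (adjusted p = 0.00283), and Ephb2 fell by 1.78 on the log2 scale (adjusted p = 0.000453).

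Among the genes of lowest p that were higher in SM were Pappa2, Igf1, Lama2, Zim1, Ednra and Dlg2. Pappa2, a protease that frees insulin-like growth factors from their binding proteins, was at 242, 220, 238, 243 and 243 CPM in SM. The frontal OF held 67.4, 69.0, 62, 44.9 and 39.2 CPM and the parietal OF 82.7, 66.6, 65.8, 33.4 and 31.7 CPM. SM libraries varied little and none overlapped a front (2.16 ± 0.18, adjusted p = 7.62e-07). Igf1 itself was at 453, 295, 211, 343 and 477 CPM in SM, at 75.3, 99.6, 82.3, 43.0 and 87.6 CPM in the frontal OF and at 78.2, 29.8, 53.7, 30.2 and 44.5 CPM in the parietal OF (2.57 ± 0.21, adjusted p = 8.38e-07). Igfbp3, which binds IGFs, did not pass (0.05 ± 0.25, adjusted p = 0.953).

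Lama2, a laminin chain of basement membranes, was at 106 ± 18.9 CPM in SM, 30.5 ± 3.69 CPM in the frontal OF and 21.3 ± 6.61 CPM in the parietal OF (2.06 ± 0.19, adjusted p = 3.08e-06). Zim1, an imprinted zinc finger gene, was at 353, 355, 279, 368 and 359 CPM in SM, against at most 159 CPM in any front (2.16 ± 0.22, adjusted p = 7.29e-06). Ednra, the endothelin receptor A, Egfr, the EGF receptor, and the scaffold gene Dlg2 followed with log2 fold changes of 1.43, 2.14 and 1.95.

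Skull and suture patterning transcription factors were higher in SM or not called in the fit of the 15 libraries. Of 41 listed genes 36 were tested, with 12 higher in SM against the mean of both fronts, where 3.48% of all genes were higher. Taken singly, the frontal OF gave 5 higher (1.2% of all genes) and the parietal OF 10 (2.68% of all genes). The list had a median log2 fold change of 0.63. In that fit edgeR called 0 lower (1 had an unadjusted p under 0.05), and DESeq2 and limma-voom each called 1. Under other settings edgeR called up to 3 lower, namely with the second libraries in place of the first and in a single fit of all first libraries. Without embryo 4 the count of higher genes was 7, and against the frontal OF alone Tfap2b was lower. Erg, an ETS factor, was at 561, 576, 700, 604 and 858 CPM in SM, at 188, 247, 206, 143 and 142 CPM in the frontal OF and at 224, 39.7, 83.0, 90.9 and 103.8 CPM in the parietal OF. SM was above every front (2.28 ± 0.25, adjusted p = 1.65e-05). Twist1, whose loss causes coronal synostosis, was at 30.3, 32.4, 26.9, 36.7 and 37.4 CPM in SM and at 9.39 to 24.8 CPM in the fronts. The groups did not overlap (0.94 ± 0.25, adjusted p = 0.0289), but neither single front gave a call (adjusted p = 0.0715 and 0.12), and the call was lost without embryo 1, 4 or 5 (adjusted p = 0.11, 0.123 and 0.108).

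Alx1, Six2, Zic1, Foxc1, Zeb1, Zeb2, Ets2, Sox6 and Prrx1 were among the 12, with log2 fold changes from 0.48 to 1.66. Angptl2, a marker of suture mesenchyme in the fixed list, did not pass (0.09 ± 0.14, adjusted p = 0.813). Foxp2, a forkhead factor, was at 555, 270, 220, 423 and 562 CPM in SM. It was at 154, 190, 118, 171 and 270 CPM in the frontal OF and at 131, 74.0, 38.2, 101 and 114 CPM in the parietal OF (1.63 ± 0.16, adjusted p = 5.64e-06). SM and frontal OF overlapped as groups, while within each of the 5 embryos SM was the highest and the parietal OF the lowest.

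Fibroblast matrix genes split. Of 30 listed genes 29 were tested, 11 higher and 5 lower in SM (median 0.52), against 3.48% and 4.79% of all genes. The counts were 10 and 2 without embryo 4 or without the embryo as a block. The higher ones included the elastic fibre genes Fbn1, Fbn2, Eln and Mfap4 and the small leucine-rich proteoglycans Ogn and Aspn, and the lower ones Col5a1, Dcn, Lum, Col6a3 and Col12a1. Col12a1 was not called without the block, without TMM scaling, with the second libraries in place of the first or without embryo 1 or 4 (adjusted p between 0.0725 and 0.249). Ogn was at 459, 136, 164, 334 and 492 CPM in SM and at 47.0 to 277 CPM in the fronts, higher in SM than in both fronts of the same embryo in 5 of 5 (adjusted p = 5.78e-05). Of 18 tested tendon-like and smooth muscle-like genes 4 were higher, namely Chodl, Thbs2, Tnn and Myh11 (median 1.01), against 3.48% of all genes. In this list 2 were higher without the embryo as a block or without embryo 3 or embryo 4. Myh11, a smooth muscle myosin at adjusted p = 0.0494, was not called without the block, with filterByExpr or without embryo 2, 3, 4 or 5 (adjusted p between 0.0516 and 0.204). Tnn was not called without the block (adjusted p = 0.2425) or without embryo 3 (adjusted p = 0.1153) or embryo 4 (adjusted p = 0.08284). Of these 18 genes edgeR called 0 lower in the fit of the 15 libraries (2 had an unadjusted p under 0.05), against 1 by DESeq2, limma-voom, edgeR without an expression filter and edgeR without embryo 2, and 2 in a single fit of all first libraries. Of 6 tested pericyte markers 4 were higher in SM as well and 1 was lower, against 3.48% and 4.79% of all genes. The pericyte list summed to 282 to 742 CPM in SM, 137 to 436 CPM in the frontal OF and 143 to 279 CPM in the parietal OF. Chodl, a lectin gene, was at 15.7 to 36.9 CPM in SM and at 0 to 10.9 CPM in the fronts (4.23 ± 0.73, adjusted p = 0.00109).

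Of 32 cell cycle genes 2 were called, both lower in SM: the cyclins Ccnd1 and Ccnd2 (median of the list 0.10), against 8.27% called among all genes. Ccnd2 was not called without embryo 3, 4 or 5 (adjusted p = 0.0664, 0.0998 and 0.059). In the fit of the 15 libraries edgeR called 0 higher (3 had an unadjusted p under 0.05), against 2 by DESeq2, 1 by limma-voom, 1 by edgeR without an expression filter and 4 in a single fit of all first libraries. Without TMM scaling 2 were higher, and Mki67, a proliferation marker, passed (adjusted p = 0.00418 against 0.0946 with it). Mki67 also passed with DESeq2 (adjusted p = 0.024), limma-voom (adjusted p = 0.018), no expression filter (adjusted p = 0.0431) and a single fit of all first libraries (adjusted p = 0.00694). Ccnd1 was at 42.0, 60.9, 43.2, 31.3 and 45.6 CPM in SM and at 77.4 to 145 CPM in the fronts (-1.16 ± 0.21, adjusted p = 0.00154). Top2a, a marker of dividing cells, was at 356 ± 75.7 CPM in SM, 309 ± 56.0 CPM in the frontal OF and 342 ± 25.2 CPM in the parietal OF (0.12 ± 0.14, adjusted p = 0.702).

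Marker lists of the E16.5 coronal single-cell populations, taken from the study's own separate libraries and limited to the first 20 that it gives for each population, were set beside these values. The study chose them on those cells. Markers of its ectocranial mesenchyme and hypodermis populations at E16.5 were not among these lists. All 19 tested of the first 20 Ibsp osteoblast markers were lower in SM (median -4.45). Markers of the mesenchyme population gave 8 higher (Erg, Sox6, Ets2, Net1, Ptn, Fmnl2, Adamts8 and D430019H16Rik) and 1 lower (Loxl2) of 20. Markers of the Mmp13 osteoblast population gave 3 lower of 18 (Fgfr3, Col6a3 and Olfml3), and those of dura mater 2 higher (Foxp1 and Shisa3) and 1 lower (Gja1) of 17, where 3.48% of all genes were higher and 4.79% lower. Col6a3 was not called without the embryo as a block, without TMM scaling or without embryo 4 (adjusted p between 0.0882 and 0.121), nor Gja1 without TMM scaling or without embryo 2, 3, 4 or 5 (adjusted p between 0.0598 and 0.112). Of 18 markers of proliferating cells edgeR called 0 in the fit of the 15 libraries (3 had an unadjusted p under 0.05), DESeq2 3 and limma-voom 1. With edgeR 2 were higher without TMM scaling, 1 without an expression filter and 1 without embryo 5, and a single fit of all first libraries gave 3 higher and 1 lower.

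**Figure D3:**
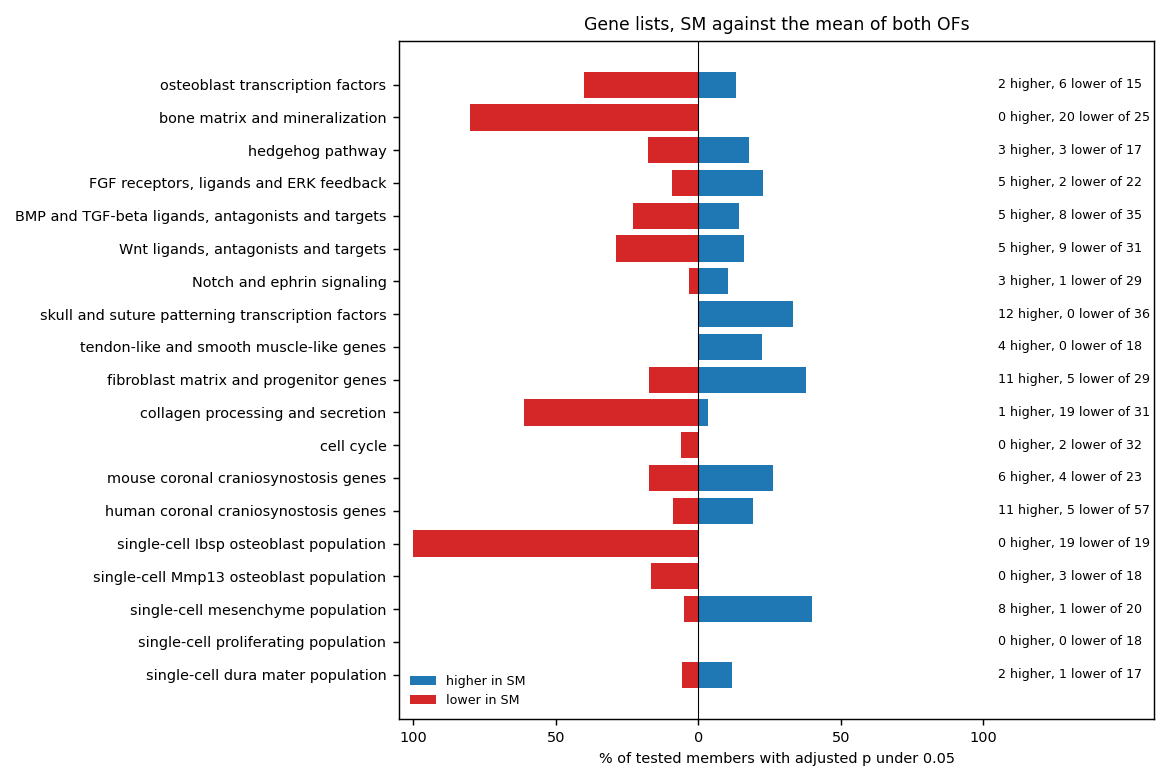
Share of the tested members of each gene list (vertical) with adjusted p under 0.05 in SM against the mean of both OFs (horizontal, %), higher to the right and lower to the left, with the counts beside each bar. Bone matrix, collagen processing and Ibsp osteoblast markers lie almost wholly to the left, patterning factors wholly to the right, and hedgehog, Wnt and BMP lists on both sides.

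Genes whose mutation in mouse or human gives coronal craniosynostosis, as listed by the study, fell on both sides. Of 23 mouse genes 6 were higher and 4 lower, where 3.48% of all genes were higher and 4.79% lower. Of 57 human genes 11 were higher and 5 lower. Without embryo 4 the counts were 4 and 4, and 7 and 4. Lower in SM were Alpl, Fgfr3, Runx2 and Nell1 of the mouse list. Higher were Twist1, Msx2, Jag1, Bcl11b, Fgf9 and Gdf6. Gdf6 had 253 counts in SM, 1 in the frontal OF and 0 in the parietal OF, with a mean of 2.08 CPM in SM. It was near the threshold (adjusted p = 0.0396) and was not called against the frontal or the parietal OF alone (adjusted p = 0.244 and 0.103).

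Markers of other cell types were summed in each library. The sums of endothelial, erythroid, macrophage, neural, Schwann cell and glial, skeletal muscle, mast cell, melanocyte, chondrocyte, osteoclast, hypodermis, dura mater and keratinocyte lists overlapped between SM and the 10 OF libraries. Single calls were Acan and Cd34 (higher in SM) and Perp and Gja1 (lower). Cd34, placed here in the hypodermis list, is also a marker that the study gives for suture mesenchyme at E18.5. Macrophage markers were at 24.3 to 61.3 CPM in SM, 45.4 to 59.8 CPM in the frontal OF and 62.6 to 79.8 CPM in the parietal OF, so SM lay below the parietal OF. Dura mater markers were at 31.0 to 61.1 CPM in SM, 60.7 to 119 CPM in the frontal OF and 53.6 to 102 CPM in the parietal OF. Neural and erythroid sums leant higher in SM, with medians of 49.8 and 277 CPM there. These medians were 23.3 and 118 CPM in the frontal OF and 12.6 and 113 CPM in the parietal OF. Of 8 neural genes 4, and of 7 erythroid genes 3, were higher at an unadjusted p under 0.05, against 1952 of all 18551 genes tested. None of these neural and erythroid genes was called. The keratinocyte genes Krt5, Trp63 and Dsg3 and the muscle regulators Myog and Myod1 had no count in any library. Pericyte markers, with Kcnj8 and Higd1b in the list, gave 4 higher in SM of 6 tested (Rgs5, Abcc9, Notch3 and Pdgfrb) and 1 lower (Cspg4). Among all genes 3.48% were higher and 4.79% lower. Against the frontal OF alone 1 pericyte marker was higher and 1 lower, and Notch3 was not called there (adjusted p = 0.301). Its call against the mean of both OFs was lost without embryo 3, 4 or 5. The part of all these cells in the results was not tested. The parietal OF of embryo 5 held 495 CPM of Ctsk, the osteoclast protease, against 28.1 to 77.7 CPM in the other parietal libraries. The highest sum of the whole osteoclast list in a parietal library was 498 CPM. The other listed osteoclast genes thus added little there, and no gene of that list was called.

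The fronts were also taken singly, which asks whether SM differs from each in the same genes. These comparisons share the SM libraries, so their values are given side by side. Against the frontal OF 223 genes were higher in SM and 550 lower (4.17% of genes tested, 1.2% higher and 2.96% lower), and against the parietal OF 497 were higher and 841 lower (7.21%, 2.68% and 4.53%). Without embryo 4 the totals were 413 and 646, and without embryo 5 the parietal total was 844. Leaving out the third frontal OF library gave totals of 673 and 1432. Without TMM scaling the splits were 343 higher and 365 lower, and 644 higher and 551 lower.

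Ibsp was lower in SM by a log2 fold change of -5.05 ± 0.28 against the frontal OF and -5.35 ± 0.28 against the parietal OF. Col1a1 gave -2.07 ± 0.18 and -2.09 ± 0.18, and Runx2 -0.81 ± 0.16 and -0.76 ± 0.16. Among genes higher in SM, Igf1 gave 2.19 ± 0.27 and 2.95 ± 0.27, Erg 1.83 ± 0.31 and 2.73 ± 0.32, and Zim1 1.62 ± 0.27 and 2.69 ± 0.28. Fbn1, fibrillin 1, gave 1.39 ± 0.19 (adjusted p = 0.000199) against the frontal OF and 0.56 ± 0.19 (adjusted p = 0.0879) against the parietal OF.

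**Figure D4:**
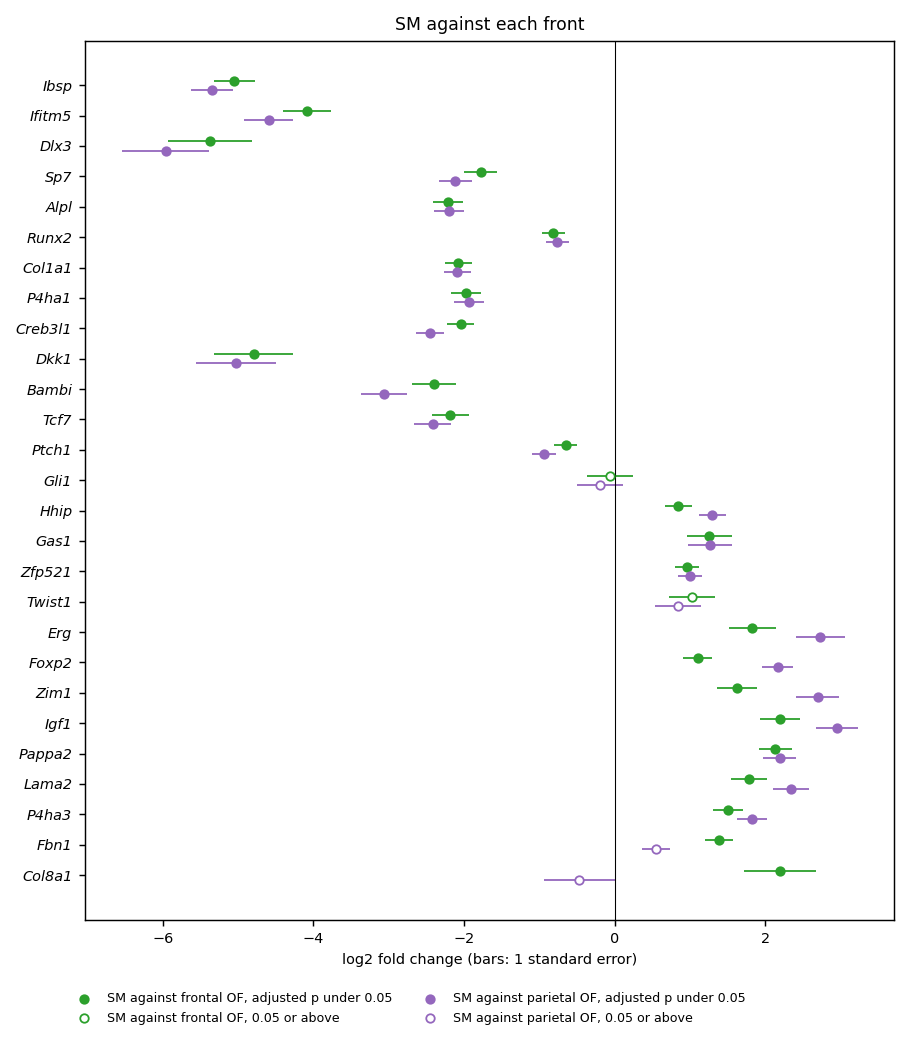
Log2 fold change ± 1 SE (horizontal) of single genes (vertical) in SM against the frontal OF (green) and the parietal OF (purple); filled points passed adjusted p under 0.05. Bone genes lie left of 0 in both comparisons. The bars of several genes lie apart, among them those of Erg, Foxp2, Zim1, Igf1, Fbn1 and Col8a1.

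The fronts were compared directly to test where the SM comparisons differ. By edgeR 0 of 18551 genes differed (936 had an unadjusted p under 0.05), the lowest adjusted p being 0.162, and DESeq2 called 146 genes and limma-voom 3. There was no call between fronts for Erg (0.90 ± 0.31, adjusted p = 0.935), Igf1 (0.76 ± 0.26, adjusted p = 0.935) or Fbn1 (-0.83 ± 0.19, adjusted p = 0.401), which does not show that they were equal.

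Tfap2b, an AP-2 transcription factor expressed in neural crest, was among the genes nearest to a call and was chosen, as was Col8a1, after its values were seen. It was at 9.81, 2.02, 6.97, 9.71 and 19.9 CPM in the frontal OF and at 0 CPM in all parietal OF libraries. SM held 0, 0.0330, 1.91, 0.676 and 0.0432 CPM. Pooled over embryos, 1156 frontal counts against none gave a level at least 449-fold higher in the frontal OF, taking 3 counts as the limit of the parietal group. This bound covers counting error only, since reads amplified without molecular identifiers are not independent molecules, and leaves out the spread between embryos (adjusted p = 0.162 by edgeR). Of the 3 genes that limma-voom called, Tfap2b was 1 (adjusted p = 0.00592).

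Col8a1, a short-chain collagen gene, leant in the other direction. It was at 127, 17, 67.3, 40.2 and 25.9 CPM in the frontal OF and at 239, 668, 550, 120 and 155 CPM in the parietal OF (-2.67 ± 0.50, adjusted p = 0.166). The frontal OF of embryo 1 lay above the lowest parietal value, while within each embryo the frontal OF was below the parietal OF.

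The last comparison asks where the contrast of SM and fronts in the coronal suture differs from that in the frontal, lambdoid and sagittal sutures at the same age, over 50 first libraries. The difference was called for 1813 genes in the upward and 1205 in the downward direction (15.4% of 19537 genes, 9.28% and 6.17%), and for 2048 and 883 without TMM scaling. Coronal libraries held 20873549 to 34518477 counts against 8098490 to 18450955 in the other sutures and had mitochondrial shares of 25.7% to 52.4% against 12.8% to 26.2%, and their part in the result was not tested. With sample quality weights, chosen after seeing the data, limma-voom called 940 genes. Leaving out the third frontal OF library, edgeR called 3304. With the second coronal libraries of embryos 1 to 3 in place of the first, the count was 2652, of which 1067 were among the first 3018.

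Hhip had the lowest p. SM exceeded the fronts in the coronal suture (1.10 ± 0.24), and was below them in the frontal (-4.94 ± 0.37), lambdoid (-1.68 ± 0.28) and sagittal suture (-5.02 ± 0.36), a difference of 4.98 ± 0.30 (adjusted p = 5.53e-13). With the second coronal libraries it was 4.73. Ptch1 was lower in SM in all 4 sutures, but least in the coronal (-0.77 ± 0.14 against -3.29, -1.93 and -3.34), with a difference of 2.08 ± 0.16 (adjusted p = 1.2e-10). Gli1 gave -0.10 ± 0.19 in the coronal suture and -3.21, -1.02 and -2.98 in the others, a difference of 2.30 ± 0.23 (adjusted p = 9.52e-09). Lepr, the leptin receptor, Fstl4 and Npnt, a matrix ligand of integrins, also differed upward, by 3.13, 3.36 and 2.20. So did the osteoblast gene Ibsp, by 2.58 (adjusted p = 0.000377), so upward differences were not particular to hedgehog genes.

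In the downward direction Mmp16, a membrane metalloproteinase, was lower in coronal SM than in its fronts (-1.82 ± 0.13) and at -0.06, 0.46 and 0.79 in the frontal, lambdoid and sagittal sutures. The difference was -2.21 ± 0.15 (adjusted p = 4.1e-12). Cdh4, R-cadherin, gave -3.80 ± 0.34 against -0.21, 0.95 and 1.86 (difference -4.67 ± 0.38, adjusted p = 3.13e-10). Aqp1, a water channel, Cpz, a carboxypeptidase, and Col12a1 were likewise below 0 in the coronal suture and above 0 in each of the others.

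**Figure D5:**
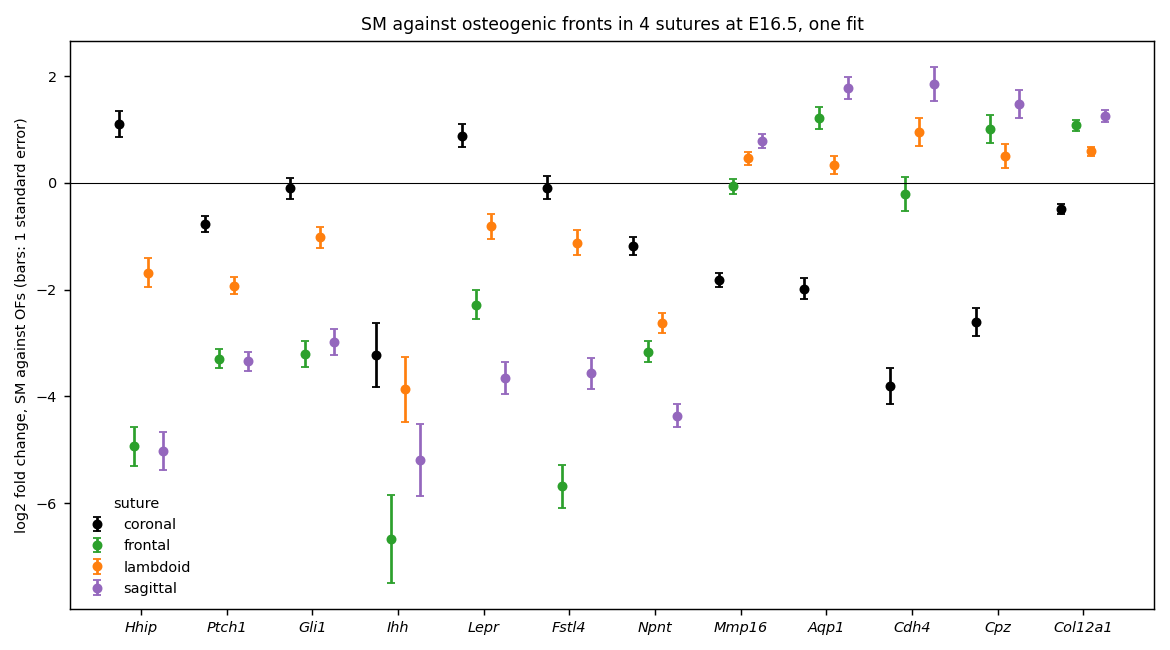
Log2 fold change ± 1 SE of SM against OFs (vertical) for 12 genes (horizontal) in the coronal (black), frontal (green), lambdoid (orange) and sagittal (purple) sutures at E16.5, from a single fit. Hhip and Lepr lie above 0 in the coronal suture only, and Mmp16, Aqp1, Cdh4 and Cpz lie furthest below 0 there.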

How the data were processed

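The authors captured the regions by laser microdissection, amplified the cDNA (Ovation RNA-Seq System V2), made Nextera XT libraries, aligned reads with STAR 2.5.3a to mm10 and counted them per gene with featureCounts 1.6.4, without strand, on a GENCODE annotation. The deposited values used here are raw read counts per gene (55487 features), so overlapping and antisense genes cannot be told apart. A further table of the authors' log2 ratios between groups holds their own comparisons and was not used. Libraries of complete sutures, the second coronal libraries of E18.5 and the single-cell files were not used, and E18.5 first libraries entered only the fit of all first libraries.

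Counts of the 15 libraries were fitted in edgeR 4.0.16 (R 4.3.3) by the quasi-likelihood F test, two-sided, with TMM factors (0.693 to 1.31), a minimum of 1 CPM in at least 2 libraries (more than 10% of them), and region and embryo in the design (8 residual degrees of freedom). SEs were taken from the fold change and its F statistic, and p values were adjusted by Benjamini-Hochberg over all genes. The pairing rests on the litter identifier that regions of a number share. Residuals of same-embryo libraries correlated at a median of 0.0431 (15 pairs) and those of other embryos at -0.0146 (60 pairs). Unless it names another tool, an adjusted p in the text is edgeR's.

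Alternatives used DESeq2 1.42.0, limma-voom (limma 3.58.1), other scalings and filters, second libraries and left-out embryos. Named genes were the 10 protein-coding genes of lowest p in each direction among those called in each SM comparison, the 5 called genes of lowest p in each direction for the other comparisons, up to 6 members of each list (the 4 of lowest p, then those called against a single front), and a preset group (Runx2, Sp7, Alpl, Ibsp, Spp1, Col1a1, Mmp13, Ihh, Ptch1, Gli1, Hhip, Twist1, Fgfr2, Erg, Sox6, Angptl2, Igfbp3 and Top2a). Genes named beyond these were chosen after their values were seen. Members, lists and tests were chosen with earlier results of these data known. On simulated counts with known changes in SM against both fronts (17561 genes), 24% of 2-fold, 76% of 4-fold and 92% of 8-fold changes were recovered. The changes were set only in genes with a mean of at least 5 CPM and without an embryo effect, so recovery at lower levels was not measured. Some genes that the rule names are not reported here. Promoter sequences came from RefSeq (GRCm38.p6).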

Additional observations from a re-analysis of the deposited data

Results flagged for a closer look

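In 114 groups of 5 libraries (38 genes in 3 regions), 4 had a library whose gap to its neighbour, on log2(CPM + 1), exceeded the limit of 0.71 of the range. Chance alone flags about 1 in 20 groups. The frontal OF of embryo 3 was low in P4ha1 (159.5 CPM). The SM of embryo 3 was low in Fgf9 (1.82 CPM) and in Zim1 (278.9 CPM). The SM of embryo 2 was low in Pappa2 (220.1 CPM), in a group that otherwise lay between 238 and 243 CPM. For P4ha1, Zim1 and Pappa2 the low library did not cross into the range of the opposing regions.

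The contrast of SM and fronts differed between the coronal suture and the mean of the other sutures at E16.5 by a direct test of that difference in edgeR. It was higher in the coronal suture for Hhip (4.98), Ptch1 (2.08), Fstl4 (3.36), Lepr (3.13), Npnt (2.20), Gli1 (2.30), Ihh (2.02), Ibsp (2.58) and Erg (1.32), all on the log2 scale. It was lower there for Mmp16 (-2.21), Aqp1 (-3.09), Col12a1 (-1.47), Cdh4 (-4.67) and Cpz (-3.60). For Ihh the call was weak (adjusted p = 0.0415) and was lost without embryo 2 (adjusted p = 0.15), without embryo 3 (adjusted p = 0.242), without the third frontal OF library alone (adjusted p = 0.08959), with limma-voom (adjusted p = 0.06839; with sample quality weights adjusted p = 0.224) and with edgeR's own expression filter (adjusted p = 0.0536).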

How the results depend on the processing

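Of 127 named genes 104 kept their side of the threshold in SM against the mean of both OFs in all 17 alternatives, and none reversed. Many of them were picked by their low p in the main fit and others were not called there, so this is no measure for all genes. Of all 1534 genes called in that comparison, between 53.3% (without embryo 4) and 99.8% (DESeq2) were called again. Without the replicate block, called totals were 602 for SM against the frontal OF, 1032 against the parietal OF, 1285 against both, 0 between fronts and 3228 for the coronal suture less the others, and 8 named genes lost their call, among them Ihh (adjusted p = 0.0847), Etv5 (adjusted p = 0.06288) and Fgf7 (adjusted p = 0.2). Leaving out an embryo or the third frontal OF library gave 413 to 673, 646 to 1432, 826 to 1536, 0 to 1 and 3188 to 3852 calls. DESeq2 called 1801, 2676, 2823 and, between fronts, 146 genes. Adding the second libraries gave 1221, 2125, 2347 and 1, and using them in place of the first gave 1164, 2075, 2162 and 2. Between fronts, limma-voom called 3 genes, 2 with sample quality weights, and 14 genes were called with no expression filter. The call with second libraries added was Tfap2b, which was also 1 of the 2 with second libraries in place of the first, and that without embryo 1 was Abcc9. A single fit of all 100 first libraries called 5380, 6588, 6943 and 1798 genes (the cause was not tested). For the coronal suture less the others, limma-voom with sample quality weights called 940. Leaving out the third frontal OF library alone, and quality weights and second libraries for this last contrast, were chosen after seeing the data. Genes under 10 CPM rest on few reads in some libraries, and folds against groups near 0 depend on the prior count.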
